A study of Mus musculus with 6 samples.

Results

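The urea cycle and the breakdown of amino acids are represented here by 49 genes, chosen by symbol as enzymes and 1 carrier of these pathways and found among the 23282 genes of the table. Expression was measured in primary hepatocytes of C57BL6/N mice, kept without treatment (control, 3 samples) or treated with recombinant IL-1β, a proinflammatory cytokine (3 samples), for 24 h, and RNA was read at the 3′ ends of transcripts by QuantSeq. The series text mentions 2 samples in each group, whereas 3 are listed and all 6 were used. The labels do not give the dose of IL-1β. Nothing in the labels says whether the 3 samples of a group came from separate mice or cultures, so p-values measure only the spread between these samples, which may be technical. Libraries held 9538741 to 11105408 counts, at which 3 counts correspond to 0.269 to 0.321 CPM (counts divided by the TMM-scaled library size, as shares of a common total). This limit holds for counting error alone. Of the 49 genes, 46 had enough counts to be tested, and Ass1, Ido2 and Amt did not.

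The urea cycle turns ammonia, which is toxic, into urea, and in the liver it runs mainly in periportal hepatocytes, partly in mitochondria and partly in the cytosol. Aminotransferases collect nitrogen from amino acids on glutamate, and glutamate dehydrogenase releases it as ammonia. The carbon skeletons are then broken down by dedicated routes, several of which, such as those for tyrosine, tryptophan and histidine, are known mainly from the liver. Methionine is turned into S-adenosylmethionine, the methyl donor of the cell, and the homocysteine left over is either methylated again or passed to cysteine by transsulfuration.

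After IL-1β, 11 of the 46 genes tested were lower and 6 were higher (edgeR's quasi-likelihood test, adjusted p below 0.05 over the 11657 genes tested). The lower genes were Otc of the urea cycle, Glud1 and Gpt of glutamate metabolism, Tat of tyrosine breakdown, Afmid, Kmo and Ddc of tryptophan and aromatic amino acid metabolism, Ftcd of histidine breakdown, Gnmt and Cbs of methionine metabolism, and Prodh2, which acts on hydroxyproline. The higher genes were Aass, which starts lysine breakdown, Mat1a and Cth of methionine metabolism, Hgd of tyrosine breakdown, Bckdhb of branched-chain amino acid breakdown, and Gpt2. The 11 lower genes were 23.9% of those tested, against 6.44% of all genes tested, and the 6 higher genes were 13%, against 6.97%; in either direction the shares were 37% and 13.4%. Scaling by total counts alone moved these numbers to 13 lower and 5 higher, and all genes tested from 812 higher and 751 lower to 662 and 1008. Over all 46 genes the median log2 fold change was -0.089, against -0.002 over all genes tested. Of the 17 genes, 11 changed by more than 1.5-fold and 5 by more than 2-fold. Without IL-1β replicate 3, the higher genes numbered 3 in place of 6, and Gpt2, Hgd and Bckdhb were those lost.

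**Figure D1:**
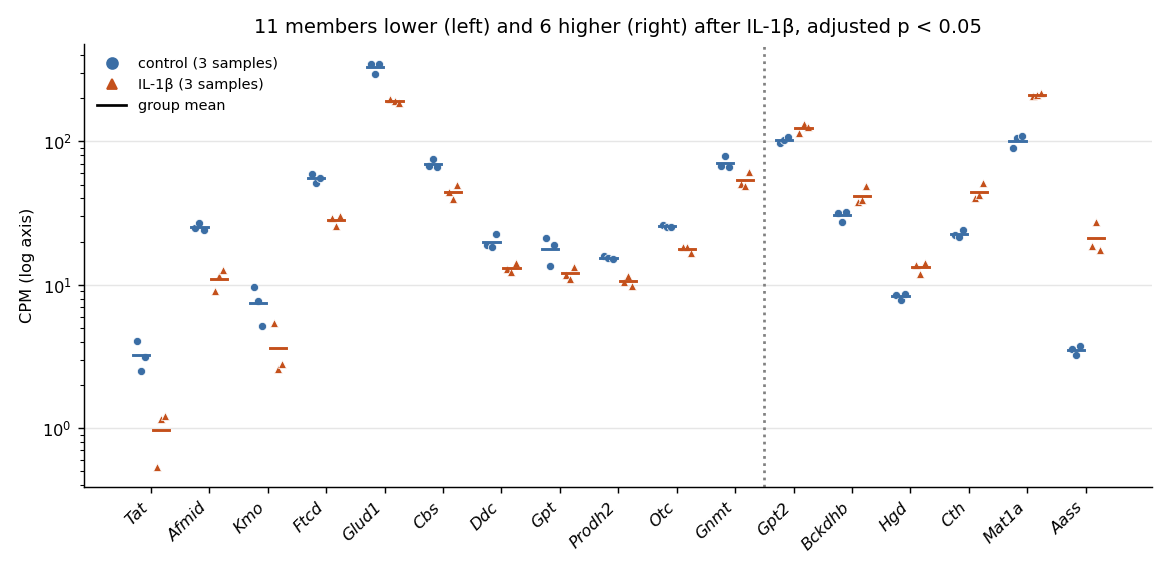
CPM on a log axis of the 17 genes that passed the test, with 1 point per sample, control as circles, IL-1β as triangles and the group means as bars. The 11 lower genes stand to the left of the dotted line and the 6 higher genes to the right; for Kmo alone among them the 2 groups overlap.

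Samples of the 2 groups did not overlap for 13 genes that were lower in all IL-1β samples, which is 28.3% of the 46, against 14.2% of all genes tested, and for 9 that were higher, which is 19.6%, against 14%. Of these, Tdo2, Kynu and Ahcy were lower and Gls2, Sdsl and Mat2a higher without passing the test. With 3 samples in each group, the smallest two-sided p that an exact permutation test allows is 0.1. Log2 fold changes of the 29 genes that did not pass ranged from -0.70 to 0.62. Their median standard error was 0.185, against 0.128 for those that passed, and of the 15 tested genes with a mean under 10 CPM only 2 passed, Tat and Kmo, whereas 15 of the 31 with more did. In these bulk cultures, fewer hepatocytes and less RNA per hepatocyte cannot be told apart.

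The labelled cell type was checked against marker genes. Hepatocyte markers summed to 26610 to 27010 CPM in the controls and 22580 to 24250 CPM after IL-1β. Of the 9 tested, 7 were lower, against 6.44% of all genes tested. The most abundant was Alb (albumin), with a log2 fold change of -0.20 (adjusted p = 0.011), and Fgb, Apoa1 and Ttr followed, at -0.04, -0.33 and -0.35. Kupffer cell and macrophage markers summed to 247 to 279 CPM and 254 to 287 CPM. Cd68 alone made up most of both sums, at 172 to 204 CPM in the controls and 175 to 198 CPM after IL-1β. The median log2 fold change of the 10 tested was 0.379. None of them passed by edgeR, DESeq2 or limma, while 3 were higher at an unadjusted p below 0.05. Of the 13 listed, Vsig4 and Timd4 were below 1 CPM in every sample. Others were detected, such as Cd5l at 16.04 to 20.5 CPM, Marco at 2.86 to 7.27 CPM and Clec4f at 0 to 2.42 CPM. Endothelial markers summed to 73.0 to 78.3 CPM and 68.0 to 70.6 CPM, with 2 of 8 lower and 1 higher. Eng, at a mean of 29.2 and 29.5 CPM, and Lyve1, at 18.8 and 25.8 CPM, made up most of both sums. The lower genes were Clec4g, at a log2 fold change of -2.87 (adjusted p = 1.9e-05), and Kdr, at -1.49 (adjusted p = 0.0051). Lyve1 was the higher gene, at 0.45 (adjusted p = 0.027). Stellate markers summed to 20.7 to 24.99 CPM and 22.0 to 27.9 CPM, with neither of the 2 tested passing by edgeR, DESeq2 or limma or at an unadjusted p below 0.05 (0 genes), and Lrat, Des and Reln were below 1 CPM in every sample. Cholangiocyte markers summed to 316 to 330 CPM and 237 to 240 CPM, and the 2 tested went opposite ways: Spp1 showed a log2 fold change of -1.20, and Sox9 one of 0.21 (adjusted p = 0.052) at 128 to 138 CPM and 148 to 158 CPM. Krt19, Krt7, Epcam and Cftr were below 1 CPM in every sample. The part of the lower hepatocyte markers in the lower values of the 49 genes was not tested.

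The sequence upstream of a gene's start was taken from the RefSeq promoter table (GRCm38.p6), where 38 of the 49 genes have a window of 250 bases before to 50 bases after the start. The loose form of a site of HNF4, a liver nuclear receptor, CAAAGNNCA, was found on either strand in 7 of the 38 (18.4%) and in 6.36% of all 32851 windows. Here and below, the first share counts genes. The second counts windows of any gene, expressed here or not, so the 2 are not strictly comparable. A C/EBP site, TTGCNNAA, was found in 7 (18.4%) and in 10.8% of all windows, and a TATA box, TATAAA, in 7 (18.4%) and in 13.6%. The full HNF4 form CAAAGTCCA, the cyclic AMP response forms TGACGTCA and TGACGCAA, and the NF-κB forms GGGANTTCC and GGGACTTTC were found in 0 of the 38, against 0.475%, 1.79%, 0.49%, 1.68% and 0.353% of all windows. Of the 10 lower genes with a window, Ftcd and Kmo held the loose HNF4 form, and Ddc and Prodh2 the C/EBP form. Of the 4 higher genes with a window, Aass and Hgd held the C/EBP form. Of the 22 genes with a window that were tested and did not pass, 5 held the loose HNF4 form (Agxt, Ahcy, Bhmt, Haao and Hao1) and 3 the C/EBP form (Hal, Hao1 and Qdpr). In Hao1 the matches of both forms overlap. These matches are descriptions of letters, and binding was not measured. The 250 bases before the start are shown for Aass and Hgd, the higher genes with the C/EBP form, and for Ftcd and Kmo, the lower genes with the loose HNF4 form. Hgd holds another C/EBP match, from base 15 after the start and so outside the printed stretch. Ddc and Prodh2, which are lower with the C/EBP form, are not shown, so this choice does not show that a form goes with a direction. The match, on either strand, is in capitals, with Aass at chr6:23132987-23133236 on the minus strand, Hgd at chr16:37579903-37580152 on the plus strand, Ftcd at chr10:76575398-76575647 on the plus strand and Kmo at chr1:175631943-175632192 on the plus strand, each written 5′ to 3′ in the direction of the gene.
Aass: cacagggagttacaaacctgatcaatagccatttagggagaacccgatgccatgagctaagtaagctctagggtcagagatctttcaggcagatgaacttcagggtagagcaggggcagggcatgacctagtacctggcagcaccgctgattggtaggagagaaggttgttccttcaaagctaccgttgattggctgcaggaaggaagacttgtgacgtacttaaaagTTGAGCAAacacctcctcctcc
Hgd: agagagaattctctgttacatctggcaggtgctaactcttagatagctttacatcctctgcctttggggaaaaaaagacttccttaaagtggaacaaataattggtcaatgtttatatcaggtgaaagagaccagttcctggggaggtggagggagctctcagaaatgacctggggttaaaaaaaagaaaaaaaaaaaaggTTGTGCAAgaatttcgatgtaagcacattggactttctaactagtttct
Ftcd: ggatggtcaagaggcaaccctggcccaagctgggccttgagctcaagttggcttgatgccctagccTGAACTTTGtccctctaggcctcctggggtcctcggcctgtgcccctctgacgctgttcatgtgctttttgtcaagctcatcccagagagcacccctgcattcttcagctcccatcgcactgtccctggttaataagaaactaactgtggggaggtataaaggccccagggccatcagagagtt
Kmo: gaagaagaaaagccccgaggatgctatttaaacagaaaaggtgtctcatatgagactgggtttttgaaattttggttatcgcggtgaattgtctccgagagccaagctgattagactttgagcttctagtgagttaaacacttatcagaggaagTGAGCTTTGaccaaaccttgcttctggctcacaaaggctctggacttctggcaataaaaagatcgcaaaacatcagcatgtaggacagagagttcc

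Among the genes of the urea cycle, Otc was the 1 of 6 tested that was lower, and none was higher by edgeR, DESeq2 or limma, nor at an unadjusted p below 0.05 (0 genes). Otc (ornithine transcarbamylase, chromosome X, 10252359 to 10321024, plus strand, GRCm38) joins ornithine and carbamoyl phosphate to citrulline, and its row overlaps several predicted genes on the other strand. It stood at 26.1, 25.3 and 25.1 CPM in the controls and at 18.4, 18.3 and 16.5 CPM after IL-1β. The groups did not overlap, and the log2 fold change was -0.53 (standard error, SE, 0.128, adjusted p = 0.0056).

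The other steps did not pass the test. Cps1, the mitochondrial enzyme that feeds ammonia into the cycle, stood at 1.79, 2.954 and 3.22 CPM in the controls and 1.92, 2.31 and 1.95 CPM after IL-1β, which are 18 to 33 counts a library. Its log2 fold change of -0.36 had a standard error of 0.389 and an adjusted p of 0.65, so a change of this size was not detectable at counts this low. Nags, which makes the activator of Cps1, stood at 20.01, 24.8 and 25.1 CPM and 26.0, 25.9 and 23.3 CPM. Slc25a15, the carrier that exchanges ornithine and citrulline across the mitochondrial membrane, stood at 35.04, 35.3 and 27.0 CPM and 34.4, 30.7 and 28.3 CPM. In both genes the groups overlapped, with log2 fold changes of 0.11 (adjusted p = 0.7) and -0.06 (adjusted p = 0.83). Asl, which splits argininosuccinate into arginine and fumarate, stood at 26.0, 22.1 and 26.6 CPM and 21.3, 18.1 and 25.1 CPM (log2 fold change -0.21, adjusted p = 0.4). Arg1, which releases urea from arginine, stood at 8.08, 5.82 and 3.93 CPM and 6.74, 5.76 and 5.21 CPM (log2 fold change -0.02, adjusted p = 0.98), and its IL-1β samples lay within the control range.

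Ass1, which makes argininosuccinate from citrulline and aspartate, had only 3 to 13 counts a library and was not tested. Its row in the table spans chromosome 2, 31470270 to 31518791, on the plus strand. A row named Gm5424 spans 31470308 to 31520629 on the same strand and held 534 to 950 counts. The GENCODE annotation of the same build ends Ass1 at 31520672, which is 1881 bases beyond the row of the table. Of the 75-base windows in the last 500 bases of Ass1 transcripts, 26.2% also occur in Gm5424. GENCODE lists Gm5424 as a processed pseudogene on chromosome 10, whereas the Gm5424 row counted here is a misc_RNA on chromosome 2, at the place of Ass1. How the authors assigned reads that match both is not stated, so the reads of Ass1 and Gm5424 cannot be told apart here. Gm5424 stood at 89.3, 55.7 and 53.8 CPM in the controls and 81.5, 62.9 and 67.3 CPM after IL-1β, and both rows summed gave a log2 fold change of 0.08 (SE 0.138, adjusted p = 0.8, a sum chosen after seeing the data). Groups overlapped in either form.

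**Figure D2:**
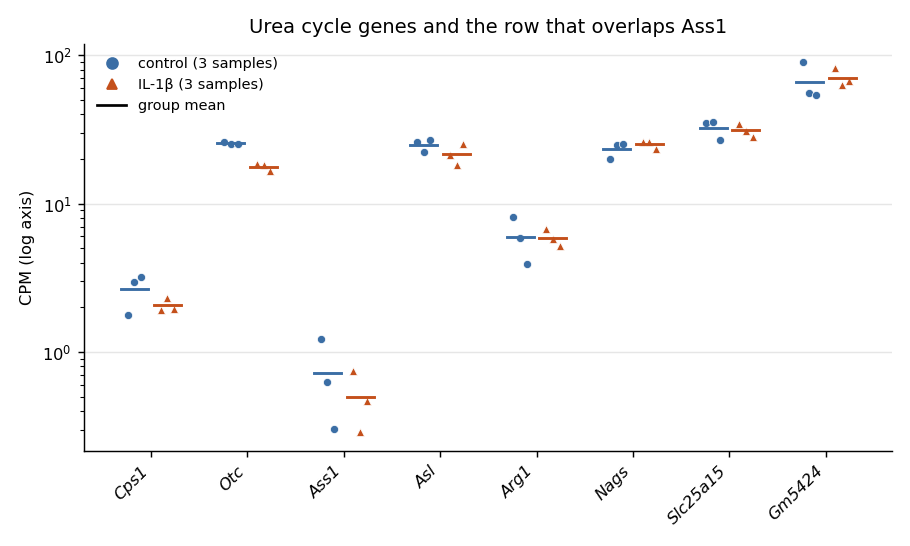
CPM on a log axis of the 7 urea cycle genes and of Gm5424, the row that overlaps Ass1, with 1 point per sample, control as circles, IL-1β as triangles and the group means as bars. Otc is the 1 gene whose groups do not overlap, and the Ass1 row lies at 0.288 to 1.22 CPM beside 53.8 to 89.3 CPM for Gm5424.

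Of the 6 genes that move nitrogen through glutamate, Glud1 and Gpt were lower and Gpt2 was higher. Glud1 (glutamate dehydrogenase, chromosome 14, 34310727 to 34345033, plus strand) releases ammonia from glutamate. It stood at 345, 293 and 346 CPM in the controls and 197, 192 and 184 CPM after IL-1β, with no overlap and a log2 fold change of -0.78 (SE 0.0723, adjusted p = 1e-08). Of the 75-base windows in the last 500 bases of its transcripts, 4.57% also occur in a pseudogene. The row overlaps Gm3219 on the same strand.

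Gpt and Gpt2 are the cytosolic and mitochondrial alanine aminotransferases. Gpt stood at 21.2, 13.5 and 18.8 CPM and 11.8, 10.95 and 13.4 CPM (log2 fold change -0.57, SE 0.174, adjusted p = 0.03), and its lowest control was just above its highest IL-1β sample. Gpt2 stood at 97.5, 103 and 107 CPM and 114, 132 and 126 CPM (log2 fold change 0.28, SE 0.0785, adjusted p = 0.017). The 2 genes thus moved in opposite directions. The ratio of Gpt to Gpt2 counts within each library, which follows from these values and is no separate result, was 0.175 ± 0.0431 (SD, n = 3) in the controls and 0.0975 ± 0.0128 (SD, n = 3) after IL-1β, without overlap. The call of Gpt was lost on leaving out any 1 sample but control replicate 2, with an adjusted p of up to 0.14. That of Gpt2 was lost without IL-1β replicate 2 or 3, at up to 0.12, and under scaling by total counts alone, at 0.065. Gls2, the liver glutaminase, stood at 26.5 to 30.0 CPM and 33.7 to 36.6 CPM with an adjusted p of 0.11. Got1 and Got2, the cytosolic and mitochondrial aspartate aminotransferases, showed log2 fold changes of -0.15 and -0.03, and their ratio overlapped between groups.

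Along the tyrosine route, the first enzyme was lower, and Hgd, further down, was higher. Tat (tyrosine aminotransferase) stood at 4.04, 2.51 and 3.12 CPM in the controls and 0.535, 1.15 and 1.21 CPM after IL-1β, all below the controls (log2 fold change -1.71, SE 0.441, adjusted p = 0.0088). Hgd (homogentisate dioxygenase), whose upstream sequence with the C/EBP form is printed above, stood at 8.46, 7.88 and 8.67 CPM and 13.7, 11.9 and 14.1 CPM, all above the controls (log2 fold change 0.67, SE 0.182, adjusted p = 0.013). With a minimum of 10 counts in every sample Tat dropped out of the test, without IL-1β replicate 1 its adjusted p was 0.066, and without IL-1β replicate 3 that of Hgd was 0.067. Hpd, which stands between them, Gstz1 and Fah, which complete the route, and Qdpr, which recycles the cofactor tetrahydrobiopterin, showed log2 fold changes of -0.29 to -0.04, and their groups overlapped.

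In the group of tryptophan and aromatic amino acid metabolism, 3 of 6 genes tested were lower: Afmid and Kmo of the tryptophan route, and Ddc. None was higher by edgeR, DESeq2 or limma, and at an unadjusted p below 0.05, 4 were lower and 0 higher. Afmid (arylformamidase, chromosome 11, 117825919 to 117839908, plus strand), which releases kynurenine, stood at 24.99, 26.9 and 24.0 CPM and 8.98, 11.5 and 12.6 CPM. The IL-1β samples lay below the controls, with a log2 fold change of -1.19 (SE 0.152, adjusted p = 2.2e-06). The row overlaps Tk1 on the other strand. Of the 75-base windows in the last 500 bases of Afmid transcripts, 26.5% also occur in the annotated gene Gm20708. How reads matching both were assigned is not stated. Kmo, which turns kynurenine into 3-hydroxykynurenine and whose upstream sequence is printed above, stood at 9.68, 7.70 and 5.14 CPM and 5.45, 2.59 and 2.79 CPM (log2 fold change -1.07, SE 0.309, adjusted p = 0.02). The row of Kmo overlaps Fh1 on the other strand. Its annotated 3′ end lies 1263 bases beyond the row, and whether reads there were counted was not tested. IL-1β replicate 1 lay within the control range, and the call was lost without control replicate 1 or 2 or IL-1β replicate 2 or 3, at an adjusted p of up to 0.13. Ddc, which removes the carboxyl group of aromatic amino acids, stood at 18.9, 18.4 and 22.7 CPM and 12.8, 12.3 and 14.1 CPM, all below the controls (log2 fold change -0.61, SE 0.151, adjusted p = 0.0067), and without control replicate 3 its adjusted p was 0.052.

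Tdo2, the liver enzyme that opens the indole ring of tryptophan, stood at 28.6 to 34.8 CPM and 20.9 to 28.2 CPM (log2 fold change -0.35, adjusted p = 0.089), and passed under scaling by total counts (adjusted p = 0.04) and without IL-1β replicate 2 (adjusted p = 0.039). Kynu and Haao, which follow Kmo, showed log2 fold changes of -0.49 (adjusted p = 0.25) and 0.11 (adjusted p = 0.89). Ido2, a relative in function of Tdo2, was too low to enter the test and stood at 3.01, 1.88 and 0.605 CPM in the controls and 0.107, 0.288 and 0.0930 CPM after IL-1β, with 2 of the IL-1β samples below the floor of 3 counts. Without the filter on low counts its adjusted p was 0.00061. The summed CPM of the 7 genes was 93.5 to 102 in the controls and 59.9 to 65.6 after IL-1β.

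Of histidine breakdown, 3 enzymes are among the 49 genes. Ftcd (chromosome 10, 76575648 to 76590338, plus strand), which passes the formimino group of histidine to folate, stood at 59.0, 51.1 and 55.4 CPM in the controls and 29.2, 25.7 and 30.2 CPM after IL-1β. The groups did not overlap, with a log2 fold change of -0.96 (SE 0.106, adjusted p = 2e-07). Hal and Uroc1, the first enzymes of the route, showed log2 fold changes of 0.46 (adjusted p = 0.31) and -0.70 (adjusted p = 0.19), and both were under 10 CPM. Amdhd1, the enzyme between Uroc1 and Ftcd and not one of the 49, stood at 13.3, 10.6 and 9.98 CPM and 6.63, 4.80 and 7.07 CPM (log2 fold change -0.87, SE 0.217, adjusted p = 0.0068).

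**Figure D3:**
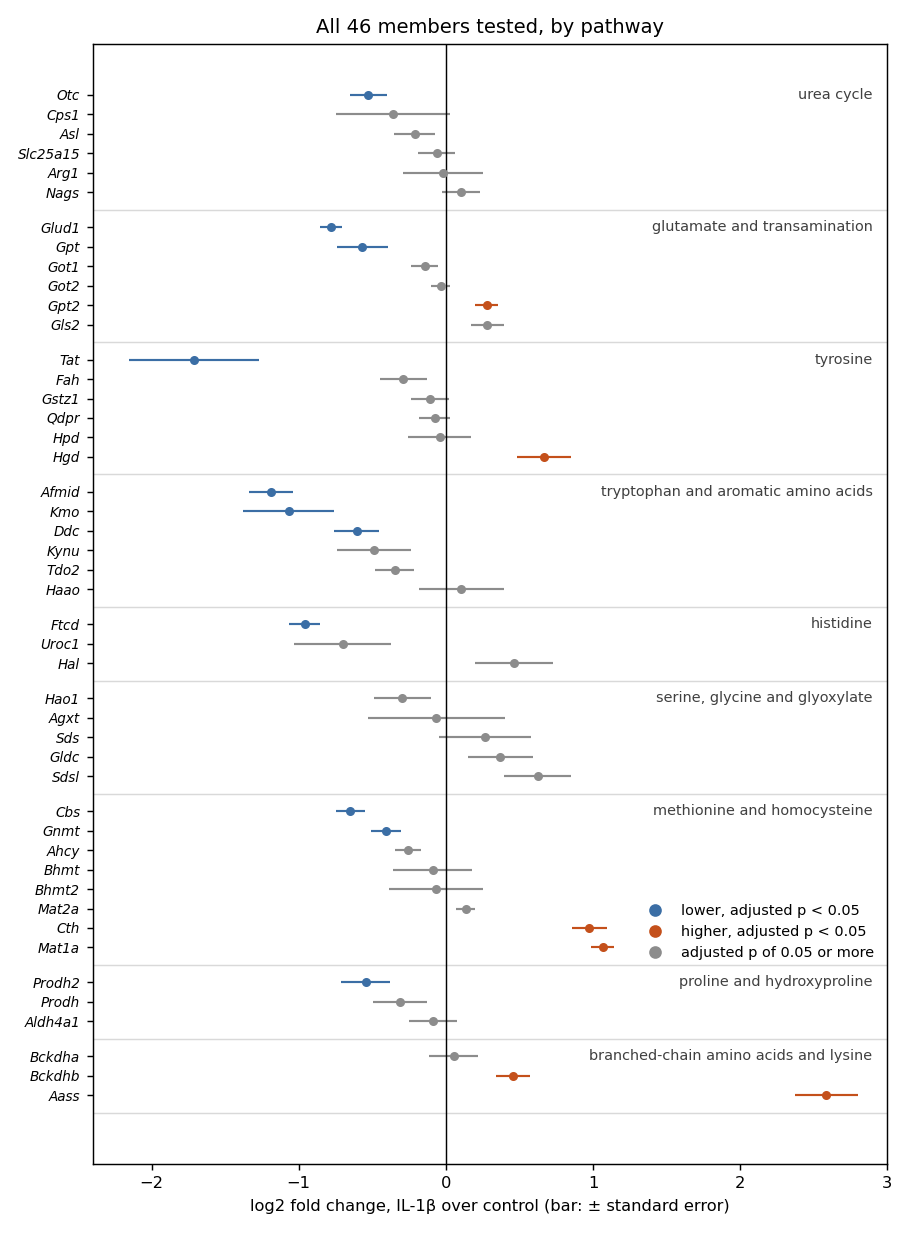
Log2 fold change of IL-1β over control for the 46 genes tested, with the standard error as a bar, grouped by pathway, with genes that passed the test in color and the others in grey. Tat, at -1.71, and Aass, at 2.59, are the ends of the range, and the methionine group holds genes on both sides of 0.

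Methionine and homocysteine metabolism held genes in both directions, with 2 of 8 lower and 2 higher. Mat1a (chromosome 14, 41105033 to 41124428, plus strand) is the form of methionine adenosyltransferase known from adult hepatocytes, and Mat2a the form known from other and dividing cells. Mat1a stood at 89.8, 105 and 109 CPM in the controls and 207, 211 and 217 CPM after IL-1β, far outside the control range (log2 fold change 1.07, SE 0.0773, adjusted p = 9.9e-11). Mat2a stood at 426, 471 and 439 CPM and 479, 516 and 474 CPM, with a log2 fold change of 0.14 (adjusted p = 0.2). The ratio of Mat1a to Mat2a counts was 0.227 ± 0.0190 (SD, n = 3) in the controls and 0.434 ± 0.0244 (SD, n = 3) after IL-1β, without overlap.

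Gnmt, which methylates glycine with S-adenosylmethionine, stood at 67.5, 78.7 and 66.7 CPM and 50.5, 48.6 and 61.5 CPM (log2 fold change -0.41, SE 0.101, adjusted p = 0.0068). Its groups did not overlap, but without control replicate 2 or IL-1β replicate 1 or 2 the adjusted p rose to at most 0.073. Ahcy, which frees homocysteine, stood at 65.0 to 72.8 CPM and 55.5 to 59.1 CPM (log2 fold change -0.26, adjusted p = 0.059), and passed under upper-quartile scaling (adjusted p = 0.033) and scaling by total counts (adjusted p = 0.02). Of the 75-base windows in the last 500 bases of its transcripts, 22.3% also occur in other genes, among them Gm4737. The sum of Ahcy and Gm4737 showed a log2 fold change of -0.32 (SE 0.0789, adjusted p = 0.0069, a sum chosen after seeing the data). Bhmt and Bhmt2, which methylate homocysteine again, showed log2 fold changes of -0.09 and -0.07 at 3.02 to 8.17 CPM, with overlapping groups.

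The 2 enzymes of transsulfuration went apart. Cbs (cystathionine β-synthase, chromosome 17, 31612623 to 31637205, minus strand) stood at 67.5, 75.0 and 65.9 CPM in the controls and 44.0, 39.6 and 49.3 CPM after IL-1β (log2 fold change -0.65, SE 0.0988, adjusted p = 2.9e-05). Cth (cystathionine γ-lyase, chromosome 3, 157894248 to 157925063, minus strand), which follows it and releases cysteine, stood at 22.3, 21.6 and 24.1 CPM and 40.2, 42.1 and 50.9 CPM (log2 fold change 0.97, SE 0.118, adjusted p = 9.7e-07). Neither gene had overlapping groups. The ratio of Cth to Cbs counts, which follows from these values and is no separate result, went from 0.328 ± 0.0390 (SD, n = 3) to 1.003 ± 0.0798 (SD, n = 3). The row of Cbs overlaps Gm27775 on the other strand, and its annotated 3′ end lies 3729 bases beyond the row. Among genes that did not pass, the annotated 3′ ends of Tdo2, Hal and Prodh lie 1324, 2561 and 11369 bases beyond their rows. Whether reads there were counted was not tested.

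**Figure D4:**
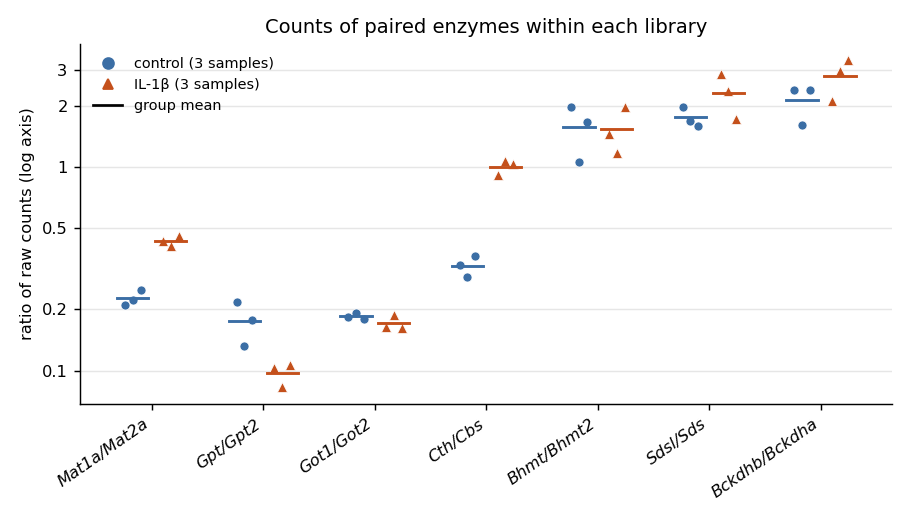
Ratio of the raw counts of 2 enzymes within each library, on a log axis, for 7 pairs that share or follow a reaction, with 1 point per sample, control as circles, IL-1β as triangles and the group means as bars. The ratios Mat1a to Mat2a and Cth to Cbs are higher and Gpt to Gpt2 is lower after IL-1β without overlap, and the other 4 pairs overlap.

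Lysine breakdown held the largest rise of the 46 genes. Aass (chromosome 6, 23072173 to 23132986, minus strand), whose protein carries out the first steps of lysine breakdown in mitochondria, stood at 3.57, 3.22 and 3.73 CPM in the controls and 18.5, 27.3 and 17.5 CPM after IL-1β. Every IL-1β sample lay above every control, and the log2 fold change was 2.59 (SE 0.212, adjusted p = 1e-09), a 6.01-fold rise. Its upstream sequence with the C/EBP form is printed above. Bckdhb, a subunit of the dehydrogenase that commits branched-chain amino acids to breakdown, stood at 31.9, 27.4 and 32.3 CPM and 37.6, 39.2 and 48.6 CPM (log2 fold change 0.46, SE 0.118, adjusted p = 0.0089), and without control replicate 2 or IL-1β replicate 3 its adjusted p rose to at most 0.11. Its partner subunit Bckdha showed a log2 fold change of 0.05 (adjusted p = 0.91), and the ratio of the 2 overlapped between groups.

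Prodh2, which oxidizes hydroxyproline, stood at 15.8, 15.4 and 15.2 CPM and 10.5, 11.5 and 9.76 CPM, all below the controls (log2 fold change -0.55, SE 0.164, adjusted p = 0.025). The call was lost without control replicate 2 or 3 or IL-1β replicate 1 or 3, at an adjusted p of up to 0.11. Prodh, its relative for proline, and Aldh4a1, which completes the step to glutamate, showed log2 fold changes of -0.31 and -0.09 and overlapping groups. None of the 5 tested genes of serine, glycine and glyoxylate metabolism passed by edgeR, DESeq2 or limma, and 1 was higher at an unadjusted p below 0.05. Sdsl stood at 5.10 to 7.23 CPM and 8.36 to 11.01 CPM (log2 fold change 0.62, adjusted p = 0.073) and passed without control replicate 1 (adjusted p = 0.032), and Sds, Gldc, Agxt and Hao1 lay between -0.30 and 0.37. Amt, of the glycine cleavage system, was at 0 to 3 counts in each library and was not tested.

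All 49 genes together took 0.219% to 0.226% of the counts in the controls and 0.205% to 0.209% after IL-1β. The sums over each pathway, in which 1 abundant gene can carry most of a difference, are given as a description. Genes of glutamate metabolism summed to 827 to 876 CPM in the controls and 719 to 729 CPM after IL-1β, with Glud1 alone at a mean of 328 and 191 CPM, and the 3 histidine genes to 60.4 to 73.1 CPM and 35.5 to 41.0 CPM. Urea cycle genes summed to 111 to 118 CPM and 101 to 109.5 CPM. That sum counts only the Ass1 row, at 0.2882 to 1.221 CPM. It leaves out Gm5424, at 53.81 to 89.25 CPM with overlapping groups, whose reads cannot be told apart from those of Ass1. The urea cycle sum is thus incomplete, and its lower value may not hold for the whole cycle. Proline genes summed to 39.9 to 44.5 CPM in the controls and, lower, to 33.9 to 35.3 CPM after IL-1β. Methionine genes went the other way, from 759 to 827 CPM to 883 to 924 CPM, with Mat1a alone at a mean of 101 and 212 CPM, as did those of lysine and branched-chain amino acids, from 47.7 to 49.7 CPM to 74.1 to 80.7 CPM. Sums of the tyrosine group and of the serine and glycine group overlapped between groups.

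Other enzymes of amino acid breakdown, a list of 68 genes, had 62 tested, of which 7 were lower and 2 higher. Their median log2 fold change was -0.04, against -0.002 over all genes tested. Of all genes tested, 6.44% were lower and 6.97% higher, and these shares also stand beside the counts of the lists that follow. Whether any of these lists differed from all genes was not tested. Without IL-1β replicate 2, only 1 of the 62 genes was lower. Those with the smallest adjusted p were Arg2, the mitochondrial arginase, at 0.49 (adjusted p = 3.4e-05), Aldh7a1 of lysine breakdown at -0.41 (adjusted p = 0.0025), Pcbd1, which helps to recycle tetrahydrobiopterin, at -0.39 (adjusted p = 0.005), and the asparaginase gene Aspg at 0.82 (adjusted p = 0.0062). Arg2 stood at 93.3, 101 and 93.9 CPM and 141, 136 and 129 CPM, and the groups of Arg1 overlapped. Whether the 2 genes differed in response was not tested. Among plasma membrane amino acid transporters, 3 of 22 tested were lower and 6 were higher, and without control replicate 2, IL-1β replicate 1 or IL-1β replicate 3 only 1 was lower. Slc7a2, a carrier of arginine and other cationic amino acids, stood at 61.0 to 68.7 CPM and 446 to 454 CPM (log2 fold change 2.80, SE 0.072, adjusted p = 2.7e-19). Slc7a1, a carrier of the same kind, rose by 0.90 (adjusted p = 4.8e-06), the cystine carrier Slc7a11 rose by 0.75 (adjusted p = 1.8e-08), and the glutamine carrier Slc38a3 fell by 1.45 (adjusted p = 1e-09). Nos2, the inducible enzyme that makes nitric oxide from arginine, was not tested, at 0, 0 and 0.101 CPM in the controls and 1.497, 1.06 and 0.930 CPM after IL-1β. Of 9 tested enzymes of amino acid synthesis, Asns (asparagine), Psat1 (serine) and Mthfd2 (folate carbon units) were higher, at 0.53, 0.64 and 0.67, and none was lower, also by DESeq2 and limma and at an unadjusted p below 0.05 (0 genes).

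Factors known to act on these genes had 20 tested, of which 4 were lower and 3 higher. Over all genes tested, 6.44% were lower and 6.97% higher, here and for the periportal and pericentral lists below. Hnf4a stood at 84.7 to 91.2 CPM and 41.7 to 43.8 CPM (log2 fold change -1.04, adjusted p = 1.6e-09), and the glucagon receptor Gcgr showed a log2 fold change of -1.28 (adjusted p = 9.4e-05). Creb3l3, a liver transcription factor of the secretory pathway, had -3.23 (adjusted p = 6.1e-12). Cebpa and Cebpb, of the C/EBP family, had 0.34 (adjusted p = 0.014) and 0.74 (adjusted p = 1.4e-05), and Klf15, known to act on amino acid breakdown, had 0.24 (adjusted p = 0.72). The part of these factors in the values of the 49 genes was not tested. Other genes of periportal hepatocytes had 5 of 8 lower and 1 higher, and genes of pericentral hepatocytes 4 of 9 lower and 1 higher. Without IL-1β replicate 3 the pericentral genes had 2 lower, and without control replicate 1 they had 2 higher. Of the pericentral genes of nitrogen metabolism, Glul, which makes glutamine, showed a log2 fold change of 0.17 (adjusted p = 0.48), and Oat, which breaks down ornithine, had 0.37 (adjusted p = 0.18).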

How the data were processed

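RNA of 3 control and 3 IL-1β-treated samples was sequenced as single-end reads of 75 nt by QuantSeq. Per the labels, the authors aligned reads with Bowtie2 (GRCm38, mm10); the version, the counting tool and how reads with several matches were treated are not given in the sources used here, nor is whether counting used strand. The authors deposited raw read counts per gene, and log2 values of TMM-normalized CPM plus 1. Columns of the authors' own comparison (fold change and p-value) were not used. The raw counts were fitted with edgeR 4.0.16 (R 4.3.3), using filterByExpr, TMM, the quasi-likelihood test on all 6 samples, and Benjamini-Hochberg adjustment over 11657 genes. The standard error is the size of the log2 fold change divided by the square root of F. The procedure was tested on simulated data in which 200 genes changed. No row without a gene name entered.

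Alternatives were scaling by total counts or by the upper quartile, DESeq2 1.42.0, a minimum of 10 counts per sample or no filter, limma 3.58.1 on log2(CPM + 1), on log2(CPM + 0.1) and on the deposited log2 values, the replicate number as a block, each sample left out, an adjusted p below 0.01, and a fold over 1.5. Summing near-identical rows (Gm5424 with Ass1, Gm4737 with Ahcy) was added after seeing the data. The ratios of paired counts were not in the plan, restate the counts of the same genes and were not tested. The 49 genes and the other lists were chosen with earlier results of these data known. Named by rule were all of the 49 and at most 4 genes of each other list with the smallest adjusted p. The rule also took the 4 most abundant of each marker list, but was not followed for the Kupffer cell, endothelial and stellate lists. Hnf4a, Cebpa, Creb3l3, Gcgr, Klf15, Arg2, Nos2, Glul and Oat were named by rule as well. Other marker genes, Amdhd1 and the near-identical rows were named after their values were seen, and some genes are not reported here. Promoter windows came from RefSeq and annotation from GENCODE of the same build. Replicates of a group differed by more than sampling noise, with a chi-square per degree of freedom of 4.16 to 10.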

Additional observations from a re-analysis of the deposited data

How the results depend on the processing

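The 8 genes Otc, Glud1, Afmid, Ftcd, Cbs, Mat1a, Cth and Aass passed at an adjusted p below 0.05 in every alternative fit and with each sample left out; the other 9 of the 17 lost the call in at least 1, as given with each gene. Over the settings with all 6 samples the 17 kept their direction, with Tat not tested at a minimum of 10 counts in every sample. A fold change over 1.5 beside the adjusted p left 7 lower genes in place of 11, and Otc, Gpt, Gnmt and Prodh2 fell short of it. With each sample left out in turn, 8 to 10 genes were lower and 3 to 7 higher. Scaling by total counts alone gave 13 lower and 5 higher, and over all genes tested 662 higher and 1008 lower, against 812 and 751; lower genes among the other enzymes of amino acid breakdown then numbered 11 in place of 7. Genes that passed only in an alternative were Ahcy, Tdo2, Sdsl and Ido2, whose values stand in the account of each.

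No paired analysis was used as the main one, since deviations of samples with the same replicate number correlated by 0.146, 0.0744 and -0.0454; with the replicate block 11 were lower and 6 higher. The log2 fold change of Arg1, which did not pass, turned to 0.025 with the replicate block, 0.030 and 0.041 by limma on log2(CPM + 1) and log2(CPM + 0.1), and 0.030 on the deposited log2 values, and that of Bckdha to -0.001 under scaling by total counts. With each sample left out, genes that did not pass changed sign: Arg1 (-0.239 to 0.265), Slc25a15 (-0.179 to 0.007), Hpd (-0.096 to 0.003), Gstz1 (-0.196 to 0.020), Qdpr (-0.148 to 0.077), Haao (-0.096 to 0.263), Agxt (-0.199 to 0.079), Bhmt (-0.246 to 0.166), Bhmt2 (-0.288 to 0.119), Aldh4a1 (-0.167 to 0.050) and Bckdha (-0.071 to 0.181). The cause was not tested. Genes such as Cps1, Agxt and Tat had few counts, which limits what can be said of them. The reason for their low counts was not tested.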
